A study of Rattus norvegicus with 6 samples.

Results

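The 8 genes described here encode proteins that break down heme or take up, store, release or oxidise iron: Hmox1, Fth1, Ftl1, Slc40a1, Tfrc, Cp, Slc11a1 and Slc11a2. They were chosen by name, with earlier results of these data known. Their probes were those whose accession on the array is a RefSeq transcript of 1 of them, which gave 24 of the 61657 probes. Fth1 had 4 probes, Ftl1 had 5, Cp had 4, Slc40a1, Tfrc and Slc11a2 had 3 each, and Hmox1 and Slc11a1 had 1 each. Each of the 24 was well above background on all 6 arrays, so the filter on dim probes removed none of them.

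Cortex of the kidney was taken from male Sprague-Dawley (Crl:CD(SD)) rats, purchased at 5 weeks of age, and the RNA of each animal was read on 1 single-colour Agilent array. The treated group was 3 rats given N-nitrosodimethylamine (NDMA), a nitrosamine whose metabolites alkylate DNA, at 4 mg/kg/day over 4 weeks, and the control group was 3 rats given water over the same 4 weeks. Both groups were on the same basal diet and tap water. NDMA animal 1 and the 3 controls shared slide 1, and NDMA animals 2 and 3 were on slide 2, scanned on another day, so for 2 of the 3 treated animals slide and treatment cannot be told apart. The 75th percentile of the signal was 993 to 1053 on slide 1 and 1299 to 1310 on slide 2, and 43016 to 46248 probes were well above background per array. All 10 proximal tubule markers looked for were measured. Their summed level, in multiples of each array's 75th percentile, was 2001, 1761 and 1871 in NDMA rats, against 2388, 2428 and 2240 in controls.

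Heme oxygenase, the product of Hmox1, opens the ring of heme and sets free iron, carbon monoxide and biliverdin, and its gene is known for its induction by heme and oxidants. Freed iron is stored in ferritin, a shell of heavy (Fth1) and light (Ftl1) chains, or leaves the cell through ferroportin (Slc40a1), which works together with ferroxidases such as ceruloplasmin (Cp). Iron enters cells bound to transferrin through the transferrin receptor (Tfrc) and crosses the endosomal membrane through Slc11a2, while the related transporter Slc11a1 moves metal out of the phagosomes of macrophages. In the kidney, filtered iron and iron-binding proteins are taken back mainly by the proximal tubule.

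Of the 8 genes 1 rose, Hmox1, and 0 fell at an adjusted p under 0.05 (limma, Benjamini-Hochberg over 31915 features, 1 per gene, read by its brightest probe). Among all features 3.0% passed, of which 2.52% of the features tested were higher and 0.476% lower, and the share of members that passed rests on that 1 gene. Without overlap between the groups were 6 of the 8 genes, Hmox1, Cp and Slc11a1 with higher signals in NDMA rats and Ftl1, Tfrc and Slc11a2 with lower ones. For Ftl1 the direction depended on the scaling, as given below. Over all features 27.6% had no overlap, and the 8 genes were chosen with earlier results of these data known. The median log2 difference, NDMA minus control, was -0.09 over the 8 genes and -0.05 over all features. With every probe tested on its own, 1 of the 24 passed, that of Hmox1, against 2.99% of 43118 probes, and 11 of the 24 had no overlap, against 26.9% of all probes. With 3 animals in each group, the smallest two-sided p an exact permutation test allows is 0.1, so none is given.

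**Figure D1:**
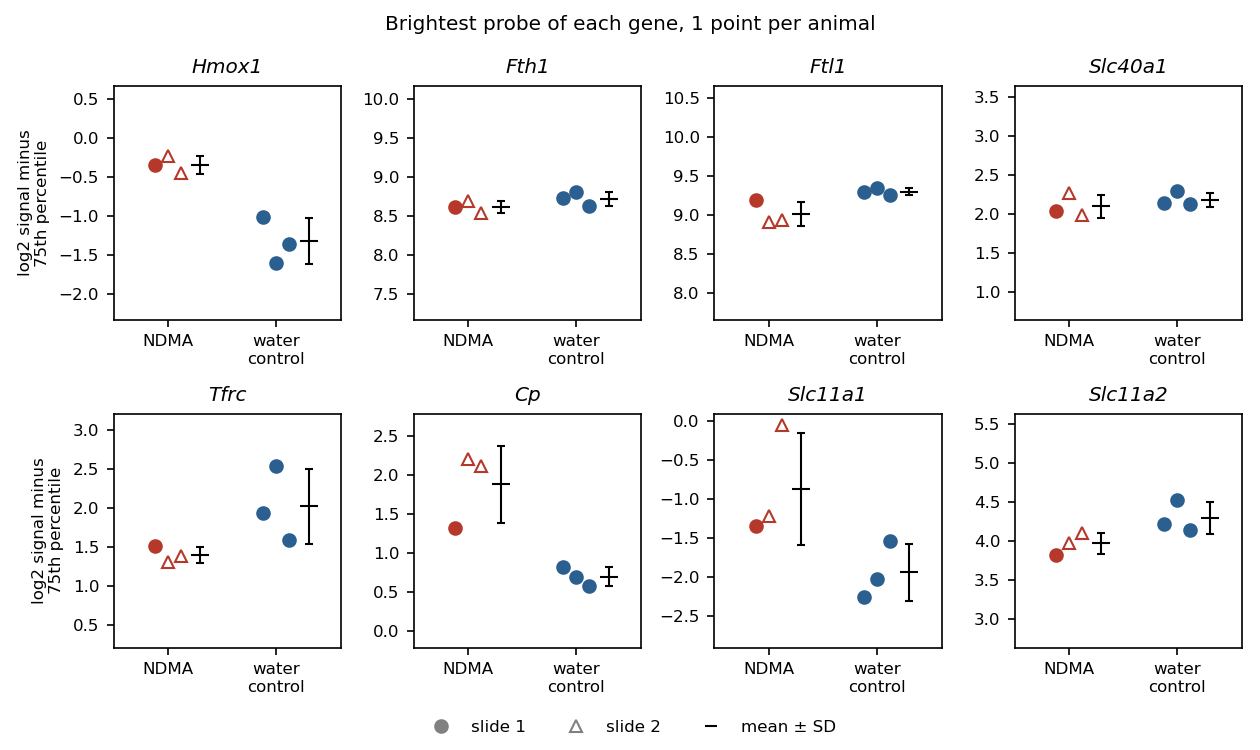
Normalised log2 signal (log2 signal minus the array's 75th percentile) of the brightest probe of each gene, 1 point per animal, NDMA rats on the left of each panel and water controls on the right; bars are the mean and SD of 3 animals, circles slide 1 and triangles slide 2. Every panel spans 3 log2 units. The NDMA animals lay above all controls for Hmox1, Cp and Slc11a1 and below them for Ftl1, Tfrc and Slc11a2. For Ftl1 the direction depended on the scaling.

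Promoter sequences from RefSeq (GRCr8) were given for 4 of the 8 genes, Cp, Slc11a2, Slc40a1 and Tfrc. Those of Cp and Tfrc are shown because these genes had the largest differences of the 4 in the positive and the negative direction. Each is the 250 bases before the annotated start of transcription, 5′ to 3′ on the gene's own strand. The Cp window lies at chr2:104368420-104368669 on the plus strand and the Tfrc window at chr11:81690319-81690568 on the minus strand.
Cp: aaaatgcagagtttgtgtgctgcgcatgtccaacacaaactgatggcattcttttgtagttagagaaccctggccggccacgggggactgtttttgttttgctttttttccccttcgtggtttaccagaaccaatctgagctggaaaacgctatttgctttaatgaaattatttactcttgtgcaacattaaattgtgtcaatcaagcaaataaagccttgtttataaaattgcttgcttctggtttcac
Tfrc: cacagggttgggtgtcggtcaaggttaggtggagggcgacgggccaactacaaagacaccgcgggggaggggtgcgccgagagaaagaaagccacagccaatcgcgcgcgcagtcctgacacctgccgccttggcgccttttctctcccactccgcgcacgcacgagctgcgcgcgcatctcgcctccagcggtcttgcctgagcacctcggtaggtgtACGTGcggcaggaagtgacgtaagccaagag
Capitals mark the motif ACGTG, the core bound by hypoxia-inducible factors, searched on both strands. It starts 31 bases before the Tfrc start. A match was present in 16.6% of the 33465 promoter windows of this length. The core of the antioxidant response element, TGACNNNGC, and the loop of the iron-responsive element, CAGTGC, were searched in the same way and had no match in the 5 windows of the 4 genes, and they were present in 10.1% and 14.4% of all windows. A match describes letters only. The windows end at the start of transcription. Iron-responsive elements act within transcripts, which were not searched, so their presence there was not tested.

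Hmox1 was higher in the cortex of all 3 NDMA rats than in any control. Its normalised log2 signal, log2 of the signal minus the array's 75th percentile, was -0.36, -0.23 and -0.46 in NDMA animals 1 to 3 and -1.01, -1.61 and -1.36 in controls 1 to 3. The NDMA animals lay within 0.22 of each other and the controls spread over 0.59, with no overlap. As raw processed signal the probe read 823, 1114 and 947 in NDMA rats, against 518, 327 and 400 in controls. The level was 1.97-fold higher after NDMA, a log2 difference of 0.98 ± 0.16 (SE, n = 3 per group, limma adjusted p = 0.0341). NDMA animal 1, on the controls' slide, was 0.97 above the control mean, about the distance of the group as a whole.

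The Hmox1 call was lost with the slide as a block (difference 0.97, adjusted p = 0.258), a fit that rests on NDMA animal 1, and with the replicate number as a block (adjusted p = 0.103). Leaving out 1 animal at a time, the call held without control 1 and was lost in the other 5 fits, where the difference was 0.84 to 1.03 and the adjusted p from 0.0737 to 0.119. Only 1 probe reads Hmox1, so agreement between probes could not be examined for it.

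The other genes of heme breakdown did not pass. Hmox2, the constitutive heme oxygenase, had a log2 difference of -0.22 ± 0.11, and the biliverdin reductases Blvra and Blvrb, which turn biliverdin into bilirubin, had -0.43 ± 0.17 and -0.14 ± 0.11 (adjusted p = 0.327, 0.260 and 0.515, limma). Of the 4 genes of the list 1 rose and 0 fell, with a median of -0.18. Blvra lay at 1.31, 0.79 and 0.92 in NDMA rats and at 1.61, 1.51 and 1.19 in controls, so NDMA animal 1 lay above control 3.

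No difference in ferritin transcripts passed, and their direction depended on the scaling. The 9 ferritin probes had processed signals of 109145 to 658750, the highest at 84.6% of the saturation value, and 0 of their spots were marked as saturated. Fth1, the heavy chain with ferroxidase activity, lay at 8.62, 8.69 and 8.53 in NDMA rats and at 8.73, 8.80 and 8.62 in controls by its brightest probe. The groups overlapped. Its log2 difference was -0.10 ± 0.09 (adjusted p = 0.559, limma), with a 95% interval of the NDMA to control ratio of 0.800 to 1.08. The difference of the same probe was 0.12 with quantile normalisation, and 4 of the 9 ferritin probes were below 0 in that setting.

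Ftl1, the light chain that promotes mineral formation inside the shell, was at 9.20, 8.91 and 8.94 in NDMA rats and at 9.30, 9.35 and 9.25 in controls. There was no overlap, but NDMA animal 1 lay only 0.10 below the control mean and the slide 2 animals carried most of the difference of -0.28 ± 0.10 (adjusted p = 0.221, limma). As raw processed signal the probe read 618602, 629031 and 639734 in NDMA rats, against 658750, 646087 and 626310 in controls, with overlap. The log2 difference was -0.04 with quantile normalisation. With normexp background correction and quantile normalisation it was 0.02. The 4 Fth1 probes differed by -0.14 to -0.01 and the 5 Ftl1 probes by -0.28 to -0.15, all 9 below 0 as reported, against 4 under quantile normalisation, or 3 where normexp preceded it. Over probes 0 of the 9 passed (limma, adjusted p from 0.224 to 0.961). Ferritin genes have processed copies in the genome, and binding of their transcripts to these probes was not tested. Of the 5 measured genes of storage and ferritin turnover 0 passed, with a median of -0.10, and the number below 0 was 5 as reported and 2 with normexp and quantile normalisation. Ftmt, the mitochondrial ferritin, had a difference of -0.36 ± 0.16 at a low signal, Ncoa4, the receptor that carries ferritin to autophagy, -0.06 ± 0.15 and the iron chaperone Pcbp2 -0.06 ± 0.11.

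**Figure D2:**
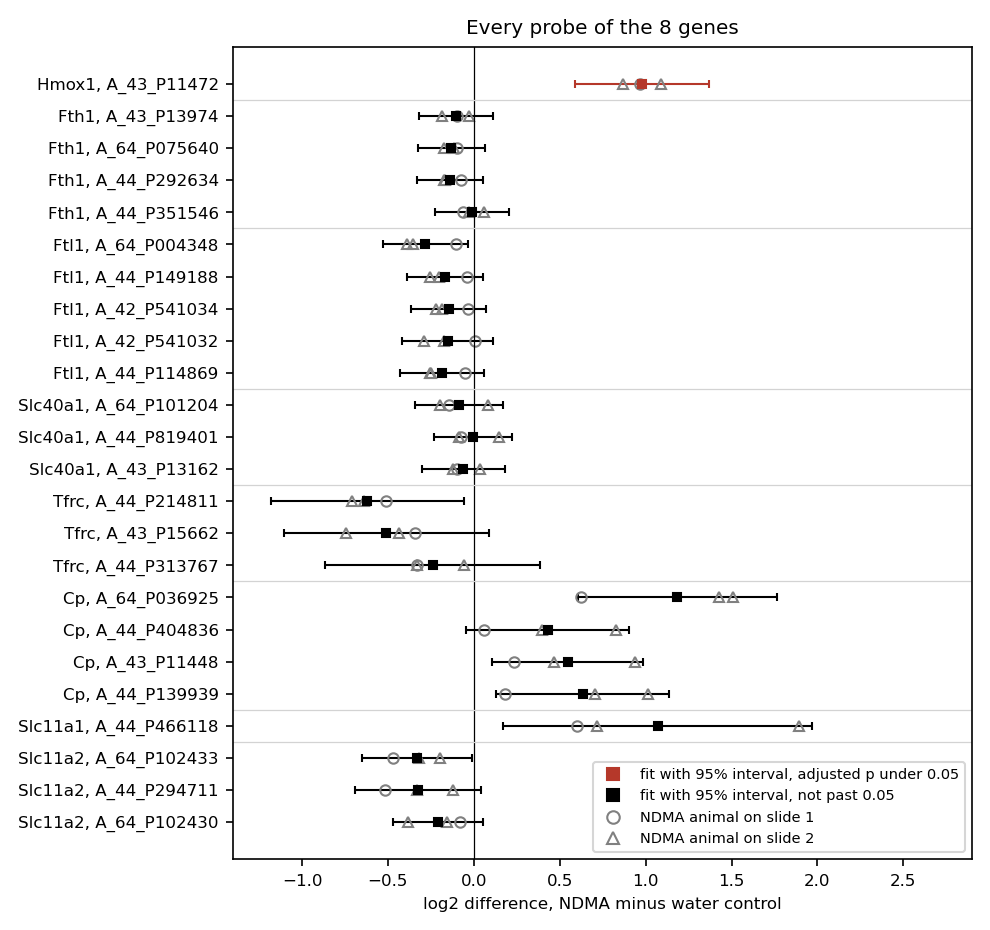
Log2 difference, NDMA minus water control, of each of the 24 probes with its 95% interval (squares), and each NDMA animal's distance from the mean of the 3 controls (circle, slide 1; triangles, slide 2). The Hmox1 probe passed at 0.98, the 9 ferritin probes lay between -0.28 and -0.01 (with quantile normalisation 4 of the 9 were below 0), and the 4 Cp probes between 0.43 and 1.18.

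Transcripts of the transferrin receptor were lower in the NDMA rats without passing the test. Tfrc by its brightest probe lay at 1.51, 1.31 and 1.38 in NDMA rats, against 1.93, 2.53 and 1.59 in controls. The NDMA animals were close together, while control 2 stood above the other controls, and control 3 was 0.09 above NDMA animal 1. The log2 difference was -0.62 ± 0.23 (adjusted p = 0.232, limma), with a 95% interval of the ratio of 0.440 to 0.961, and it was -0.36 without control 2. The other two Tfrc probes, at lower signals, differed by -0.51 ± 0.25 and -0.24 ± 0.26 and overlapped between the groups.

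Slc11a2, also called DMT1, did not pass either. Its brightest probe read 3.83, 3.98 and 4.11 in NDMA rats and 4.22, 4.53 and 4.15 in controls. NDMA animal 3 and control 3 were separated by only 0.04. The difference was -0.33 ± 0.13 (adjusted p = 0.257, limma), and the other two probes differed by -0.32 ± 0.15 and -0.21 ± 0.11. NDMA animal 1 on the controls' slide was 0.47 below the control mean, and without control 2 the difference was -0.21.

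Slc11a1, the phagosomal transporter of macrophages also called NRAMP1, had higher signals after NDMA, with wide spread. Its 1 probe read -1.35, -1.23 and -0.05 in NDMA rats, against -2.26, -2.04 and -1.54 in controls. All NDMA animals exceeded all controls, but NDMA animal 3 stood 1.17 above the next and control 3 was 0.20 below NDMA animal 1. The log2 difference was 1.07 ± 0.37, or 2.10-fold (adjusted p = 0.207, limma), with a 95% interval of the ratio of 1.12 to 3.92. Without NDMA animal 3 it was 0.66, and NDMA animal 1 alone was 0.60 above the control mean.

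Macrophage markers were higher in the same animals as Slc11a1 and Hmox1. Of the 11 measured of 12 listed, 9 rose and 0 fell. The median of their log2 differences was 1.13, and Cd163 did not pass the filter on dim probes. Adgre1 and Itgam were the 2 that did not pass the test, at 0.15 and 0.81. The summed level of the list was 85.7, 93.3 and 100.3 times the 75th percentile in NDMA rats, against 37.5, 45.7 and 43.3 in controls. Cd68, a lysosomal protein of macrophages, read 2.23, 2.34 and 2.61 in NDMA rats, against 0.77, 1.08 and 0.87 in controls. The animal with the highest signal differed between the markers. Cd68, C1qa, C1qb, C1qc, Adgre1, Itgam and Tyrobp were highest in NDMA animal 3, as was Slc11a1. Csf1r, Aif1, Mrc1 and Ptprc were highest in NDMA animal 2, as was Hmox1. Neutrophil markers gave 0 calls among 4 measured, with a median of -0.05. In whole cortex a change in the number of cells of a type and a change in RNA per cell cannot be told apart, and the part of macrophages in the Hmox1 and Slc11a1 signals was not tested.

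The rest of the uptake list had differences in both directions. Of its 11 measured genes, the 3 members included, 0 passed and 7 had values below 0, with a median of -0.33. Mcoln1, an endosomal and lysosomal channel that conducts iron, had -0.37 ± 0.10 and Slc22a17, the receptor for lipocalin-bound iron, -0.33 ± 0.10 (adjusted p = 0.131 and 0.152, limma). Among genes chosen after their values were seen, the zinc and iron importers Slc39a8 and Slc39a14 had differences of -0.54 ± 0.18 and 0.41 ± 0.13, and the metalloreductases Steap3 and Steap2 had -0.62 ± 0.21 and 0.28 ± 0.11. In each of these 4 the groups did not overlap, as in 27.6% of all features. Steap3 was at a low signal, reading -5.83, -5.03 and -5.20 in NDMA rats, against -4.78, -4.79 and -4.63 in controls. The related Steap1 and Steap4 differed by 0.30 ± 0.20 and -0.05 ± 0.16, and their groups overlapped.

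By the brightest of its 4 probes, Cp was higher in all 3 NDMA rats than in any control, and the difference just missed the threshold. Ceruloplasmin is a copper protein, made mainly in liver and also in other tissues, that oxidises iron so that it can bind transferrin. By its brightest probe Cp read 1.32, 2.20 and 2.12 in NDMA rats and 0.82, 0.69 and 0.58 in controls. NDMA animals 2 and 3, on slide 2, stood 0.88 and 0.80 above NDMA animal 1, which itself was above every control. The log2 difference was 1.18 ± 0.24, or 2.27-fold (adjusted p = 0.0630, limma; 95% interval of the ratio 1.52 to 3.40). Without NDMA animal 1 it was 1.47 and passed (adjusted p = 0.0138), and it also passed with a trended and robust variance (0.0453) and with normexp (0.0336). On slide 1 alone it was 0.62.

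The 4 Cp probes, all assigned to 1 transcript accession, gave unequal differences. The brightest differed by 1.18 and the other 3 by 0.63 ± 0.21, 0.55 ± 0.18 and 0.43 ± 0.20. The adjusted p of these 3 over probes was 0.191, 0.194 and 0.308 (limma), and the groups overlapped for the last. In NDMA animal 1 these 3 probes were 0.18, 0.23 and 0.06 above the control mean, against 0.62 for the brightest. The highest animal was NDMA animal 3 for the 3 dimmer probes and NDMA animal 2 for the brightest. With the mean of the 4 probes in place of the brightest, the difference of Cp was 0.70.

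Ferroportin transcripts showed no difference beyond the spread between animals. Slc40a1 read 2.04, 2.27 and 1.99 in NDMA rats, against 2.14, 2.29 and 2.12 in controls, so that the groups overlapped. The log2 difference was -0.08 ± 0.11 (adjusted p = 0.697, limma), with a 95% interval of the ratio of 0.789 to 1.13, and the other two probes differed by -0.01 ± 0.09 and -0.06 ± 0.10. Heph, a membrane ferroxidase related to ceruloplasmin, differed by -0.26 ± 0.12 (adjusted p = 0.309). Of the 3 measured genes of export and ferroxidases 0 passed, with a median of -0.08.

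Beyond the 8 genes, 81 further genes of iron and heme handling were listed, of which 70 were measured. The test called 1 of them lower and 0 higher, and the other 69 missed the threshold. Their log2 differences had a median of -0.10, and 50 were below 0, where 58.7% of all features were below 0. The gene that fell was Lrp2, which encodes megalin, the endocytic receptor of the proximal tubule for filtered proteins, transferrin among them. It lay at 6.01, 5.71 and 5.93 in NDMA rats, against 6.41, 6.50 and 6.44 in controls (-0.57 ± 0.10, adjusted p = 0.0448, limma). The call was lost in 12 of 18 alternatives, among them each of the 6 fits without 1 animal, the fit that blocked on slide (-0.44, adjusted p = 0.363) and the one that blocked on replicate number (adjusted p = 0.138). Its partner receptor Cubn differed by -0.05 ± 0.10. The summed level of the 10 proximal tubule markers, which include Lrp2 and Cubn, was lower in all NDMA rats as given above. The median log2 difference of these markers was -0.32, against -0.17 under quantile normalisation and -0.14 where normexp preceded it, and the part of this in the Lrp2 signal was not tested.

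**Figure D3:**
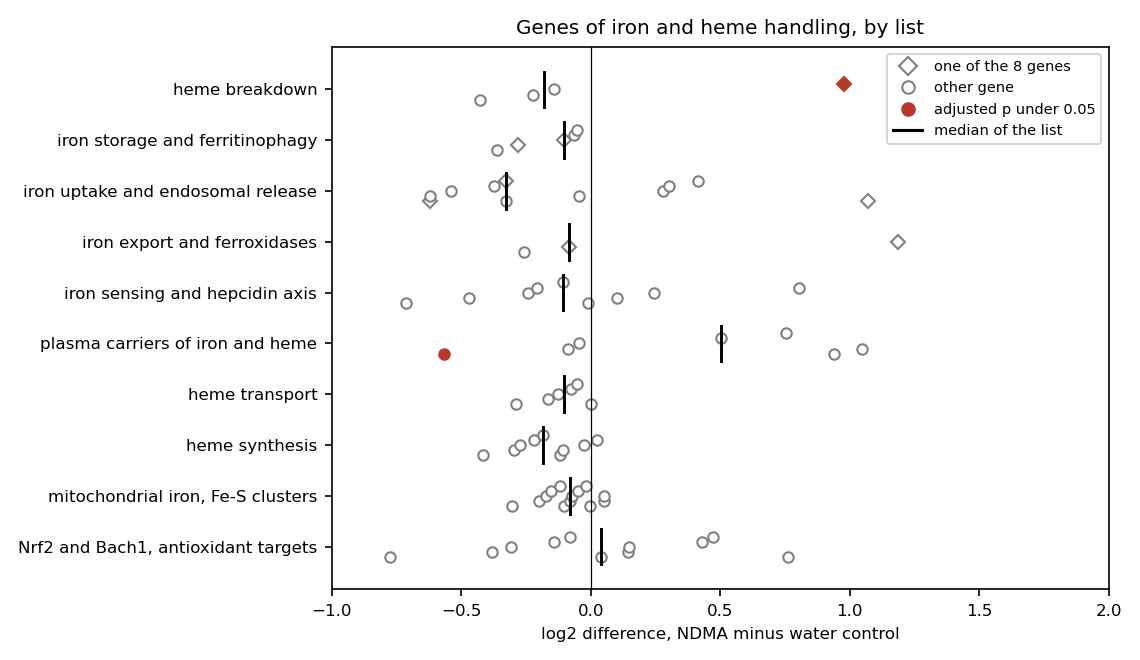
Log2 difference, NDMA minus water control, of each measured gene in 10 lists of iron and heme handling; diamonds are the 8 genes described here, circles the others, filled red symbols passed at an adjusted p under 0.05 and bars are list medians. Hmox1 at 0.98 and Lrp2 at -0.57 are the 2 filled symbols.

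Among sensors and regulators of systemic iron 0 of 9 measured genes passed, with a median of -0.11. Bmpr2, a receptor of the bone morphogenetic proteins that control hepcidin in liver, was nearest to the threshold (-0.72 ± 0.14, adjusted p = 0.0508, limma). It read -1.73, -1.52 and -1.58 in NDMA rats and -0.90, -1.12 and -0.66 in controls. With the mean of its probes in place of the brightest, the difference was -0.33 (adjusted p = 0.173). Aco1, the iron regulatory protein that is also the cytosolic aconitase, differed by -0.24 ± 0.10 (-0.14 with quantile normalisation) and Ireb2, its paralogue, by -0.01 ± 0.15. Hamp, which encodes hepcidin, was high in NDMA animal 1 alone, at -2.46 against -4.20 and -4.22 in the other two NDMA rats and -4.23, -4.42 and -4.64 in controls. Its difference of 0.80 ± 0.48 did not pass, but after blocking on the slide, a fit that uses NDMA animal 1 alone of the treated rats, it was 1.97 and passed (adjusted p = 0.0441).

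Plasma carriers were unequal between the NDMA rats. The median of the 7 measured genes, 0.50, is the value of Hpx, which was -0.39 without NDMA animal 1. Hp, the hemoglobin carrier haptoglobin, read 0.76, -2.36 and -1.94 in NDMA rats and -2.13, -1.26 and -3.30 in controls. Hpx, the heme carrier hemopexin, read -1.38, -4.40 and -3.75 in NDMA rats, against -3.64, -3.01 and -4.39 in controls. Both were highest in NDMA animal 1 and overlapped otherwise. Tf, which encodes transferrin, read 3.75, 3.26 and 2.63 in NDMA rats and 2.24, 2.60 and 1.98 in controls, with a difference of 0.94 ± 0.30 (adjusted p = 0.182, limma).

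Many genes known for their high expression in liver, though not all, were highest in NDMA animal 1 as well. Of 15 measured of 18 such genes, a list drawn up after the values of Hp and Hamp were seen, 9 were highest in NDMA animal 1. Alb, which encodes albumin, read 3.01, -4.08 and -1.03 in NDMA rats, against -0.15, 0.74 and -5.61 in controls. F2 was instead lowest in NDMA animal 1, at 0.89, 1.47 and 2.15 in NDMA rats, against 3.14, 2.36 and 2.67 in controls. Apob and Cyp2c11 were highest in control 1, and Rbp4 in control 2. The mean of the list was 0.64, -1.43 and -1.23 in NDMA rats and -0.49, -0.18 and -2.16 in controls, so controls differed among themselves as well. The summed level was 43.1, 23.3 and 20.1 in NDMA rats, against 30.3, 51.2 and 19.6 in controls. Hamp, Hp, Hpx and Tf were highest in NDMA animal 1. There Cp was the lowest of the NDMA rats, and Hmox1 lay between the other 2. Among the liver genes, Fgb and Fga also lay between the other 2 there and were highest in NDMA animal 2. The part of liver transcripts in the Cp, Hmox1, Hamp, Hp, Hpx and Tf signals was not tested.

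Genes that make or move heme were mostly slightly below the controls, and 0 of them passed. Over all features 58.7% were below 0 as well, with a median of -0.05. Of the 9 genes of heme synthesis 8 were below 0, with a median of -0.18. Alas1, the rate-limiting enzyme outside red cells, read 4.80, 4.93 and 4.81 in NDMA rats, against 5.11, 5.53 and 5.16 in controls (-0.42 ± 0.13, adjusted p = 0.175, limma). Fech, which inserts iron into the ring, differed by -0.22 ± 0.10. Of the 6 measured heme transporters 5 were below 0, with a median of -0.10. Slc46a1, a folate and heme importer, had -0.29 ± 0.10 and Abcb6, a porphyrin transporter, -0.17 ± 0.07. Of the 13 genes of mitochondrial iron and iron-sulfur clusters 11 were below 0, or 8 with quantile normalisation, with a median of -0.08. The nearest to the threshold were the mitochondrial transporter Abcb8 at -0.30 ± 0.09 and the assembly factor Bola3 at -0.20 ± 0.09 (adjusted p = 0.166 and 0.287). Erythroid markers gave 0 calls among 8 measured, with a median of 0.06, and the globin gene Hbb differed by 0.12 ± 0.14.

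Regulators and targets that share the Nrf2 and Bach1 system with Hmox1 did not pass. Of 11 measured genes 0 passed, with a median of 0.04. Nfe2l2, which encodes the activator Nrf2, differed by 0.15 ± 0.11, its inhibitor Keap1 by -0.14 ± 0.10 and Bach1, the heme-sensing repressor of Hmox1, by 0.14 ± 0.11. Nqo1, a quinone reductase, read -1.94, -1.30 and -2.14 in NDMA rats, against -2.58, -1.96 and -3.12 in controls (0.76 ± 0.34, adjusted p = 0.293, limma). Its groups overlapped, since control 2 lay above NDMA animal 3. Gclc, a subunit of the enzyme that starts glutathione synthesis, read 5.18, 4.97 and 5.35 in NDMA rats, while the controls ran from 4.90 to 6.97. The thioredoxin reductase gene Txnrd1 differed by 0.04 ± 0.10. The metallothioneins Mt1 and Mt2A had differences of -0.38 ± 0.12 and -0.31 ± 0.10 (adjusted p = 0.175 and 0.184), with no overlap between the groups. Under quantile normalisation these differences shrank to -0.097 and -0.089, and that of Mt2A was -0.062 where normexp preceded it. Slc7a11, the cystine importer, was also without overlap, higher by 0.47 ± 0.17 (adjusted p = 0.221, limma) at a low signal. It read -5.20, -4.74 and -5.13 in NDMA rats, against -5.58, -5.23 and -5.67 in controls. With only probes well above background on all 6 arrays, 10 genes of this list were measured, with a median of -0.02. Srxn1, which encodes sulfiredoxin, had 0.43 ± 0.36 with overlap.

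The genes whose signal ran most like that of Hmox1 over the 6 arrays were Gimap8, Utp11, Cr1l, Pole and RT1-N3. Their Pearson correlations with Hmox1 were 0.994, 0.991, 0.990, 0.985 and 0.984, the highest 5 among 12168 genes with a RefSeq name, and the 6 arrays fall into 2 groups that share slides in part. The correlations are a description of these arrays. The genes differed in the size of their change: RT1-N3, a class I histocompatibility gene, was higher by 0.78 ± 0.15 (adjusted p = 0.0495, limma, a call lost in 12 of 18 alternatives), Pole, a catalytic subunit of a replicative DNA polymerase, by 0.88 ± 0.17 without passing, and Gimap8, a GTPase of lymphocytes, by 0.33 ± 0.09 without passing.

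**Figure D4:**
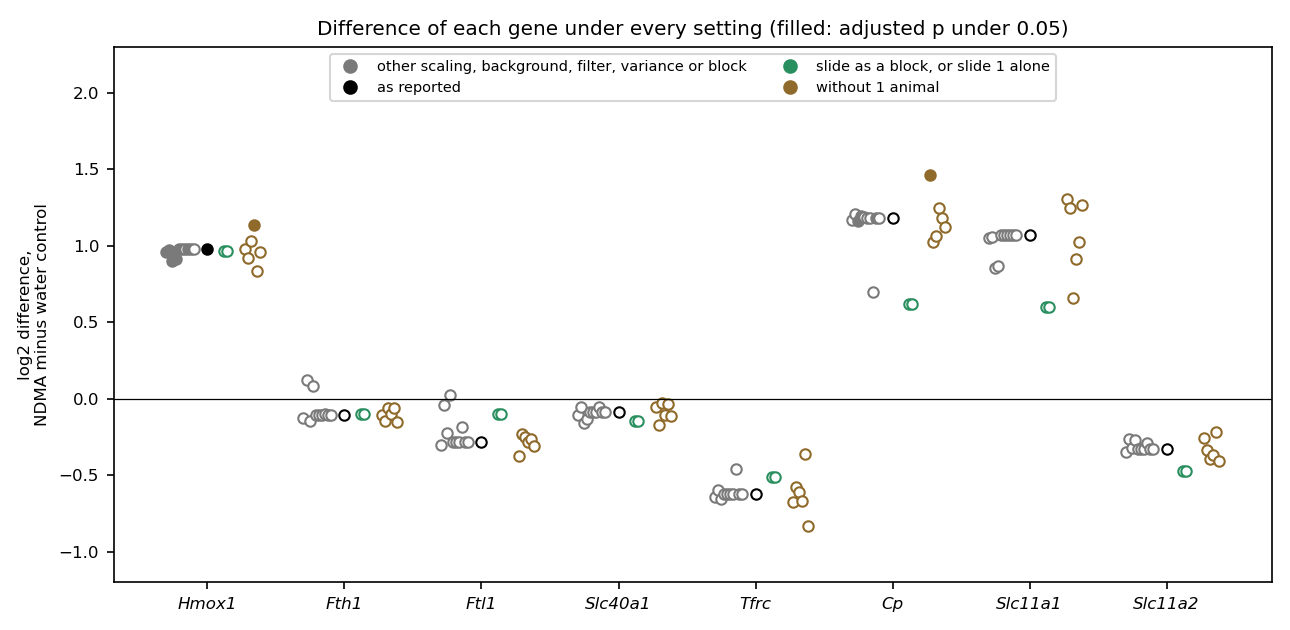
Log2 difference of each of the 8 genes as reported (black), under other scalings, background corrections, filters, variances and the replicate block (grey), with the slide as a block or on slide 1 alone (green), and without 1 animal (brown); filled points passed at an adjusted p under 0.05. Hmox1 stayed between 0.84 and 1.13 under all of these, while Cp ran from 0.62 to 1.47 and Fth1 crossed 0.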

How the data were processed

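Each of 6 rats (n = 3 NDMA, n = 3 water control) gave 1 Cy3-labelled cortex sample on a single-colour Agilent array, and the replicates are biological ones, per the labels. The authors deposited the intensity of each spot as Agilent Feature Extraction wrote it. The submitters' processing notes give version 10.7, and the headers of the files give 10.7.1.1. The processed intensity is corrected for background and a spatial trend within its array, and not scaled between arrays. The authors' deposited value table, a ratio, matched processed intensity over the array's 75th percentile within 0.00174 log2 units for values over 0.1, so scale and direction are known and genes are not centred. Its column medians were 0.115, 0.112 and 0.114 for NDMA and 0.112, 0.110 and 0.114 for controls.

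Here log2 processed intensity was reduced by the 75th percentile of the 61657 non-control probes of each array. Probes well above background on all arrays of 1 group or both were kept (43118), and flagged spots were set missing (10 values among the features tested, 0 among the 24 probes). Genes were named through RefSeq (GRCr8) by accession (15360 of 16372 NM accessions matched) and represented by the brightest probe, giving 31915 features. The test of NDMA against control was limma's moderated one (version 3.58.1, R 4.3.3; 4 residual and 2.36 prior degrees of freedom, Benjamini-Hochberg, threshold 0.05), checked on simulated arrays. The array's own annotation uses another build, so gene coordinates are not given. No array holds a depth; their number limits the precision. The members, gene lists and tests were chosen with earlier results of these data known. Steap1, Steap4, Lcn2 and the liver genes F2, Apob, Cyp2c11, Rbp4, Fgb and Fga were named after their values were seen. Named by rule were the 8 genes, in each list up to 4 genes that passed or else the 2 with the smallest p, the marker genes, and the 5 genes most correlated with Hmox1; Hmox2, Blvra, Blvrb, Ncoa4, Pcbp2, Slc39a8, Slc39a14, Steap2, Steap3, Ireb2, Hamp, Hp, Hpx, Tf, Nfe2l2, Keap1, Bach1, Nqo1, Gclc, Slc7a11, Srxn1 and Txnrd1 were named after their values were seen, as was the motif ACGTG. The planned normexp on the mean signal was not run, since only the median signal is in the files, and was run on that signal instead, a setting chosen after seeing the data.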

Additional observations from a re-analysis of the deposited data

How the results depend on the processing

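Each of the 8 genes was refitted under 18 alternatives. Slc40a1, Tfrc, Slc11a1 and Slc11a2 kept their direction and did not pass in any of them. The difference of Fth1 turned positive under quantile normalisation (0.12). When normexp preceded it, another Fth1 probe was the brightest and gave 0.0811, and the probe used as reported gave 0.0645. The difference of Ftl1 turned positive when normexp preceded quantile normalisation (0.0245). No direction is therefore given for ferritin, and the cause was not tested. Hmox1 kept its size and lost its call without a detection filter (0.98), where more features are tested, with the slide as a block and on slide 1 alone (0.97 each), and with the replicate block (0.98), and over the fits without 1 animal it ran from 0.84 to 1.13. Cp passed with normexp (1.16), with normexp and quantile normalisation (1.19), with a trended and robust variance (1.18) and without NDMA animal 1, its range without 1 animal being 1.02 to 1.47. Hpx ran from -0.39, without NDMA animal 1, to 1.12 over the fits without 1 animal.

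The count of the 8 genes that passed was 1 as reported, 2 with either normexp setting or the trended and robust variance, 0 without a detection filter, with either block or on slide 1 alone, and 0 to 1 without 1 animal; over the 24 probes the counts were the same, save a range of 0 to 2 without 1 animal. Of the other 70 genes of iron and heme handling, 2 passed with the array median, either normexp setting, the trended variance or probes detected on all arrays (Lrp2 and Bmpr2), and 0 passed without a filter, with the mean of a gene's probes, on slide 1 alone, with the replicate block or without any 1 animal (0 to 0); with the slide as a block the 1 that passed was Hamp, and with quantile normalisation Bmpr2. Over all features 957 passed as reported, 371 without a filter, 67 with the slide as a block, 351 with the replicate block, 364 to 749 without 1 animal, and 0 on slide 1 alone (limma, with 3502 at an unadjusted p under 0.05). Of the calls 84.1% were higher as reported and 67.0% with normexp. Equal replicate numbers do not pair the animals: deviations of same-numbered animals from their group means correlated at 0.04, -0.05 and 0.03 over genes. All 24 probes were well above background and 0 were marked as saturated; compression of the ferritin signals, which reach 84.6% of the saturation value, was not tested.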

Other observations

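The globin genes Hbb and Hba-a1 differed by 0.12 and -0.06 on the log2 scale, NDMA minus control. Lcn2, which encodes a carrier of iron-binding siderophores, read -1.92, -0.67 and -1.82 in NDMA rats and -2.98, -2.46 and -1.22 in controls, with overlap. Hbb and Hba-a1 belong to the erythroid marker list, and they and Lcn2 were picked for mention here after their values were seen.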
